A study of Mus musculus with 24 samples.

Results

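The genes described here encode the MHC class II chains and the proteins that load them with peptide in the mouse: H2-Aa, H2-Ab1, H2-Eb1, Cd74, H2-DMa, H2-DMb1, H2-Oa, H2-Ob and Ciita. They were chosen by name, as gene probes whose annotated gene on the array was 1 of these 9. The arrays held 13 such probes among 39429 different gene probes: 1 probe for 6 of the genes, 2 each for H2-Ab1 and H2-DMb1, and 3 for H2-Ob. Of the 9 genes, 8 passed the filter on dim probes and were tested among 9450 genes. Ciita did not pass.

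Transcripts were measured on 24 one-colour Agilent arrays, 1 per sample, in CD45.1 CD8+ OT-I T cells, whose transgenic receptor recognises an ovalbumin peptide. The 20 day 4 samples, 5 each from blood, liver, lung and small intestine, were recovered from Act-mOVA mice, which carry a CAG-OVA transgene and so express ovalbumin in their tissues. These recipients were given 11 Gy of total body irradiation in 2 fractions, then bone marrow cells and splenocytes from OT-I donors, and developed acute graft-versus-host disease. The 4 graft samples are the same kind of cell taken from the graft on day 0, before transfer, and are the study's control. All mice were female C57Bl/6, 8 to 16 weeks old, and OT-I is a receptor transgene (TcraTcrb), carried by the cells of both sets of samples. Only the OT-I T cells carried CD45.1, while all other donor cells and the recipients carried CD45.2. Cells of each sample were positively selected with magnetic beads through an antibody to CD45.1, the 3 tissues after dissociation, and 300 pg of RNA went through 2 rounds of amplification. The labels call the marrow allogeneic although donors and recipients are both given as C57Bl/6. The labels do not tie samples to animals, and each p-value therefore reflects only variation among these samples, which may be technical.

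Of all gene probes, between 22.6% and 38.6% were well above background on an array, a flag of the scanner software, and the number of arrays limits the precision. Of 10 T cell genes with a probe, 9 were well above background on every array, among them Cd8a and Cd3e, which mark the labelled cell type. The graft arrays shared 1 slide and a scan day of their own, while replicates numbered alike at the 4 day 4 sites shared a slide and all 20 shared a scan day, so neither slide nor scan day can be told apart from graft. Arrays are named here by site and replicate number. The mean correlation of an array with the others of its group, across tested genes, was lowest for intestine 4 and intestine 5, at 0.827 and 0.833, and ran from 0.882 to 0.954 over the other day 4 arrays and from 0.951 to 0.965 in the graft.

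MHC class II molecules present peptides from endocytosed protein to CD4 T cells. In mice they are made mainly by B cells, dendritic cells, macrophages and thymic epithelium, and not by conventional T cells. The I-A molecule pairs the chains encoded by H2-Aa and H2-Ab1, and the I-E molecule pairs those of H2-Ea and H2-Eb1. C57BL/6 mice lack I-E at the surface because H2-Ea carries a deletion in its promoter. New chains are held by the invariant chain, Cd74, whose last fragment is removed by H2-DM (H2-DMa with H2-DMb1), and H2-DO (H2-Oa with H2-Ob) restrains H2-DM. Transcription of class II genes depends largely on the transactivator CIITA, which docks on factors bound to the X and Y boxes of their promoters.

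The promoters are shown because these genes are known to share that arrangement. In the 300 bases around each gene start (250 before and 50 after, from RefSeq, GRCm38.p6), GNAAC followed by TGATTGG on the same strand, 20 to 45 bases from first base to first base, was searched on both strands. TGATTGG holds the inverted CCAAT of a Y box and GNAAC is a short core of an X box. Both strings were chosen after these promoters had been read. The pair was found in H2-Aa, H2-Eb1, H2-DMb1, H2-Oa and H2-Ob, and in 0.715% of 32851 mouse gene windows, while TGATTGG alone was in 7.82%. The stretches below all lie on chromosome 17 and are written 5′ to 3′ on the strand of the gene, with GNAAC and TGATTGG in capitals.
H2-Aa, chr17:34287861-34287910, minus strand: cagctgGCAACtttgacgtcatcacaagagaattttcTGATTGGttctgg
H2-Eb1, chr17:34305770-34305818, plus strand: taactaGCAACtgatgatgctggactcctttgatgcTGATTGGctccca
H2-DMb1, chr17:34153091-34153140, plus strand: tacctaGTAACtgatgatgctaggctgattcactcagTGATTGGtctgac
H2-Oa, chr17:34092297-34092346, plus strand: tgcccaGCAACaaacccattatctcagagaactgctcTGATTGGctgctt
H2-Ob, chr17:34238812-34238858, plus strand: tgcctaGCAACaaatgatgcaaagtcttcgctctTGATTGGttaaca
The first bases of the 2 strings lay 28 to 31 bases apart, and TGATTGG began 45 to 63 bases before the gene start. Neither of the 2 windows of H2-DMa held these letters. Windows of H2-Ab1, Cd74 and Ciita were not searched.

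The comparison of day 4 cells with the graft asked how these transcripts differed in recovered cells from those in the cells that were infused. Averaged over the 4 sites, 7 of the 8 tested genes were lower at day 4 and 0 were higher, while H2-Ob was not called on its brightest probe. Of the 7, H2-Aa passed the filter on dim probes through the graft alone, so its call is not separate from that filter. Genes were called at a limma adjusted p under 0.05, and in this comparison 19.1% of all 9450 genes were called lower and 53.4% were called in either direction. The median log2 difference of the 8 genes was -3.96, against 0.23 over all genes. Under 5 other scalings the 7 genes were still called lower, while the share of all genes called lower ran from 15% to 33.2% and their median from -0.34 to 0.29. The share of all calls that were higher was 64.3% in the reported fit and ran from 32.6% to 71% under those scalings. The 5 are not separate checks. Quantile normalisation and the authors' log2 table give nearly the same values, and normexp changes only the background correction. In these bulk samples, fewer cells of a type and less RNA per cell cannot be told apart.

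**Figure D1:**
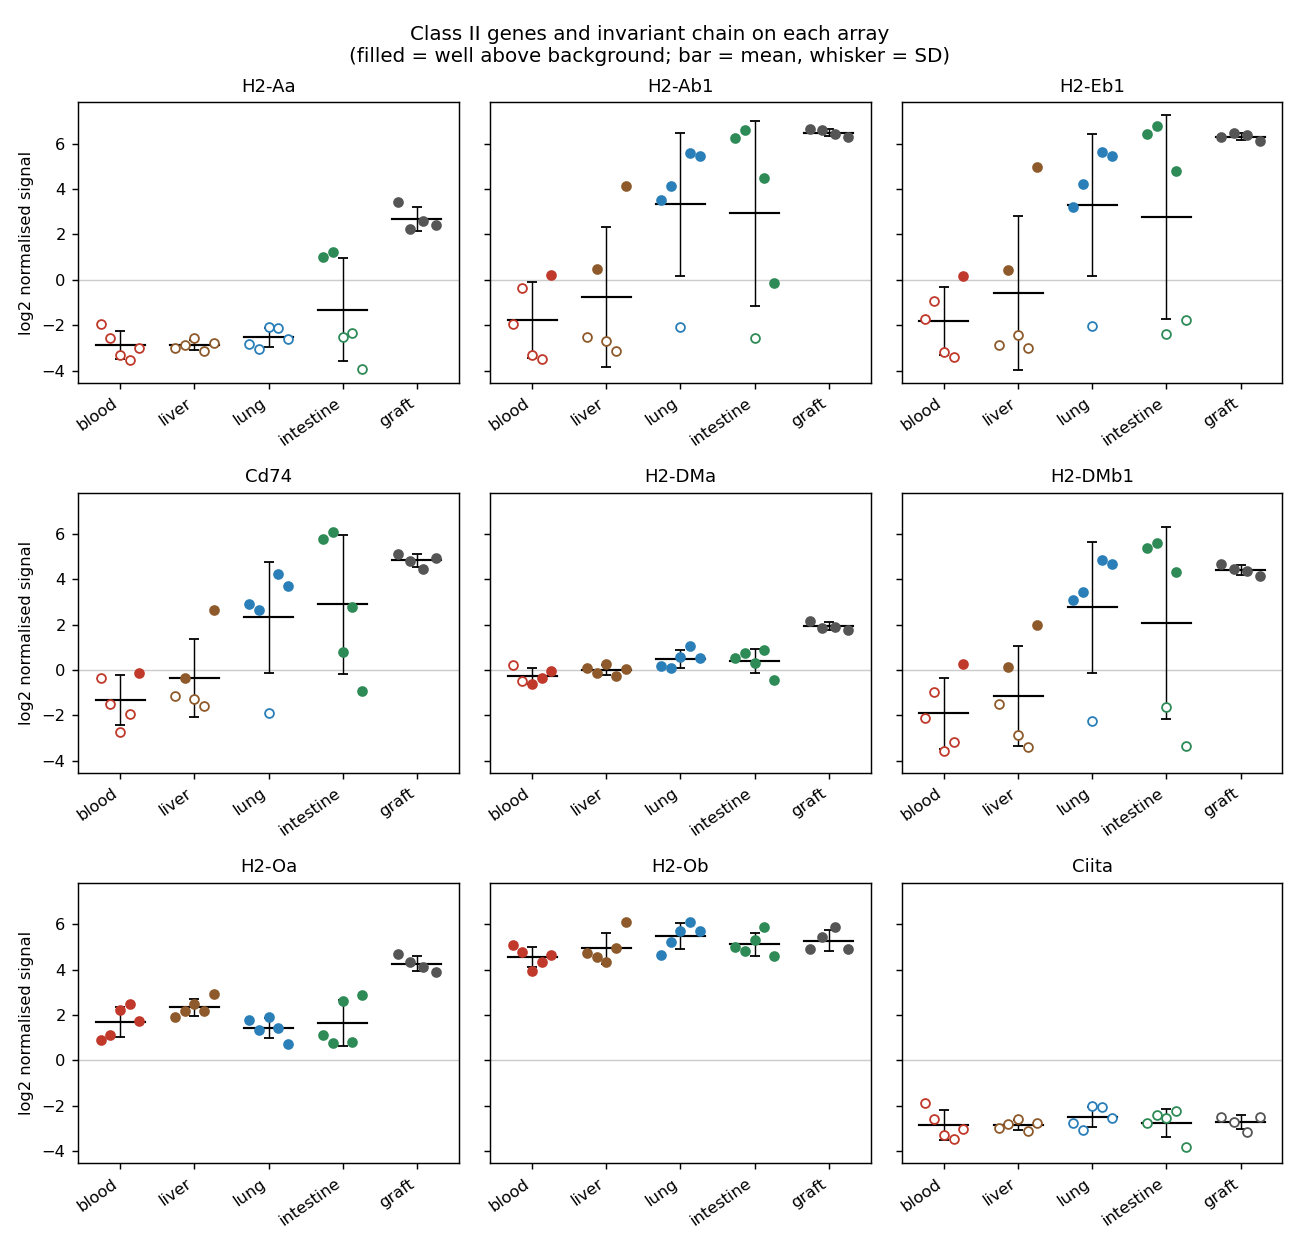
Log2 normalised signal (vertical axis) of the brightest tested probe of each gene, and of the Ciita probe, on every array, by site and graft (horizontal axis). Points are arrays, filled where the probe was well above background, bars are means and whiskers SD (n = 5 per day 4 site, 4 in the graft). The graft arrays lie close together in each panel. The lung and intestine arrays of H2-Ab1, H2-Eb1, Cd74 and H2-DMb1 are spread widely, from values near those of the graft downwards. The lowest were not well above background, except for Cd74 in intestine, where all 5 arrays were.

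By the brightest tested probe of each gene, the classical chains had the largest differences. Values are log2 of the processed signal minus the 75th percentile of that signal over all gene probes of the array, so 0 is that percentile. H2-Aa encodes the alpha chain of I-A, and its probe lies at chr17:34421285-34421344 (mm9, minus strand). It read -1.95, -2.58, -3.32, -3.54 and -3.00 in blood, -3.01, -2.88, -2.57, -3.14 and -2.78 in liver, -2.84, -3.05, -2.07, -2.12 and -2.60 in lung, 0.99, 1.22, -2.52, -2.33 and -3.91 in intestine, and 3.43, 2.26, 2.59 and 2.41 in the graft. Only intestine 1 and intestine 2 were well above background among the 20 day 4 arrays, and all 20 lay below every graft array. The difference over the 4 sites was -5.08 ± 0.58 (SE), with a limma adjusted p of 2.03e-07. H2-Aa passed the dim-probe filter through the graft alone, so its call of lower is not separate from that filter. Most of its day 4 values lay at background, which limits the size of this difference. Because no array of blood, liver or lung measured it, a bound holds for these sites: H2-Aa was at least 11.8-fold lower in blood, 12.2-fold lower in liver and 9.28-fold lower in lung than in the graft. These bounds set the mean of the graft arrays against the lowest signal among probes well above background on each dim array, or the probe's own signal where that was higher.

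H2-Ab1 encodes the I-A beta chain, and its probes were well above background on more of the day 4 arrays. Its brighter probe (chr17:34406296-34406355, mm9, plus strand) read -1.93, -0.37, -3.32, -3.49 and 0.23 in blood, -2.50, 0.46, -2.68, -3.15 and 4.14 in liver, 3.51, 4.14, -2.06, 5.59 and 5.46 in lung, 6.27, 6.62, -2.57, 4.47 and -0.13 in intestine, and 6.64, 6.62, 6.41 and 6.29 in the graft. Values in lung and intestine were spread widely, and intestine 1 and intestine 2 lay nearest to the graft. Of the 20 day 4 arrays, 19 lay below every graft array and 11 were well above background. H2-Ab1 was lower over the 4 sites by a log2 difference of -5.56 ± 1.43 (SE, limma adjusted p = 0.00256). On 4 of 5 lung arrays the H2-Ab1 probe was well above background, whereas on 0 of 5 the H2-Aa probe was. In the graft, this H2-Ab1 probe averaged 6.49 and the H2-Aa probe 2.68, so the H2-Aa probe reaches background at a smaller difference.

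The 2 H2-Ab1 probes overlap by 51 bases, of which 50 are the same, and are shown because both read the same stretch of transcript. They differ by the substitution T51C, with the base of the brighter probe first and positions counted from 1 at its 5′ end. Capitals mark that base.
H2-Ab1, brighter probe, bases 31 to 60: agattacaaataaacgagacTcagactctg
H2-Ab1, other probe, bases 22 to 51: agattacaaataaacgagacCcagactctg
The other probe gave a 4-site difference of -5.20 ± 1.39 (SE, limma adjusted p = 0.00335 in a fit of all 11278 tested probes), and it was well above background on the same number of day 4 arrays, 11 of 20.

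H2-Eb1 encodes the beta chain of I-E and is transcribed in C57BL/6 mice although its partner is not. Its probe (chr17:34453075-34453134, mm9, plus strand) read -1.74, -0.92, -3.20, -3.39 and 0.16 in blood, -2.87, 0.43, -2.42, -2.99 and 4.97 in liver, 3.23, 4.23, -2.04, 5.62 and 5.44 in lung, 6.43, 6.79, -2.39, 4.78 and -1.78 in intestine, and 6.30, 6.48, 6.37 and 6.12 in the graft. Intestine 1 and intestine 2 lay within or above the range of the graft arrays and the other 18 day 4 arrays lay below it. The difference over the 4 sites was -5.40 ± 1.52 (SE, limma adjusted p = 0.00502). The probe of H2-Ea, the partner chain, was not well above background on any array.

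Cd74, the invariant chain that holds new class II chains, read -0.33, -1.48, -2.74, -1.95 and -0.12 in blood, -1.14, -0.34, -1.28, -1.57 and 2.63 in liver, 2.92, 2.65, -1.90, 4.22 and 3.71 in lung, 5.78, 6.09, 0.78, 2.78 and -0.90 in intestine, and 5.13, 4.80, 4.48 and 4.93 in the graft. Intestine 1 and intestine 2 lay above every graft array and the other 18 day 4 arrays below all of them. All 5 intestine arrays measured Cd74 well above background, against 1 in blood, 2 in liver and 4 in lung. Over the 4 sites Cd74 was lower by a log2 difference of -3.94 ± 1.02 (SE, limma adjusted p = 0.00259).

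H2-DM, which frees the groove of the last invariant chain fragment, is encoded by H2-DMa and H2-DMb1. Both were called lower at day 4 on their brightest probes. Whether they differed from the graft by different amounts was not tested. H2-DMa (probe starting at chr17:34274300, mm9) averaged -0.25 ± 0.34 in blood, 0.01 ± 0.21 in liver, 0.49 ± 0.39 in lung, with 0.41 ± 0.52 in intestine, against 1.93 ± 0.17 in the graft (SD, n = 5 per site and 4 in the graft). It was well above background on 18 of 20 day 4 arrays, and all 20 lay below every graft array. Its difference of -1.77 ± 0.21 (SE, limma adjusted p = 4.08e-07) was the smallest among the 7 genes called, and its arrays varied less within lung and intestine than those of the classical chains.

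H2-DMb1 was read by a pair of probes that disagreed. The brighter one (chr17:34297109-34297168, mm9, plus strand) read -2.10, -0.95, -3.56, -3.19 and 0.25 in blood, -1.50, 0.12, -2.87, -3.38 and 1.99 in liver, 3.08, 3.46, -2.24, 4.86 and 4.67 in lung, 5.39, 5.61, -1.61, 4.34 and -3.35 in intestine, and 4.67, 4.47, 4.37 and 4.16 in the graft. Intestine 1, intestine 2 and lung 4 lay above every graft array, 2 others lay within the graft range and 15 lay below it. The difference over the 4 sites was -3.97 ± 1.34 (SE, limma adjusted p = 0.0161). The other probe, 7000 bases upstream on mm9, was well above background on 4 of 20 day 4 arrays and 3 of 4 graft arrays, and its difference was -0.55 ± 0.26 (SE, limma adjusted p = 0.0807).

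H2-DO, the inhibitor of H2-DM, is known from B cells and some dendritic cells. H2-Oa, its alpha chain (chr17:34232033-34232092, mm9, plus strand), was well above background on all 24 arrays. It read 0.92, 1.13, 2.20, 2.49 and 1.73 in blood, 1.90, 2.18, 2.50, 2.18 and 2.91 in liver, 1.76, 1.34, 1.90, 1.43 and 0.73 in lung, 1.13, 0.78, 2.60, 0.80 and 2.90 in intestine, and 4.68, 4.34, 4.12 and 3.90 in the graft. All 20 day 4 arrays lay below every graft array, and lung and intestine did not stand above blood and liver. Over the 4 sites H2-Oa was lower by a log2 difference of -2.49 ± 0.34 (SE, limma adjusted p = 2.37e-06).

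H2-Ob, the beta chain of H2-DO, had 3 probes that gave 3 different pictures. The brightest read 5.07, 4.79, 3.92, 4.35 and 4.66 in blood, 4.74, 4.56, 4.35, 4.94 and 6.08 in liver, 4.64, 5.23, 5.69, 6.12 and 5.72 in lung, 5.00, 4.81, 5.30, 5.88 and 4.60 in intestine, and 4.93, 5.42, 5.87 and 4.90 in the graft. The groups overlapped throughout. The difference was -0.26 ± 0.29 (SE, limma adjusted p = 0.462), and under 5 other scalings it ran from -0.83 to 0.002, called lower under 4 of them and with the sign turned under normexp background correction. A second probe, 2309 bases downstream on mm9, read -2.05, -2.78, -3.48, -3.72 and -3.21 in blood, -3.20, -3.09, -2.77, -3.31 and -0.11 in liver, -2.97, -3.25, -2.26, -2.22 and -2.79 in lung, -2.89, -2.60, -2.70, -2.44 and -1.85 in intestine, and 3.34, 3.11, 3.01 and 2.31 in the graft. Of the day 4 arrays, only liver 5 measured it well above background, and all 20 lay below every graft array. It was called lower (limma adjusted p = 2.38e-10 in the fit of all probes, where 19.7% of 11278 probes were called lower), at least 14.3-fold in blood, 11.2-fold in lung and 13.4-fold in intestine, the sites where no array measured it. The third probe, 3172 bases upstream of the brightest, differed by -1.104 ± 0.24 (SE, limma adjusted p = 0.000441) and was well above background on 5 of 20 day 4 arrays and 4 of 4 graft arrays.

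The last 30 bases of these probes are shown because the size of the difference and the call reported for H2-DMb1 and H2-Ob depend on which one is read. The 5 probes share no stretch, and all lie on chromosome 17 on the plus strand (mm9). Which transcripts each probe detects was not tested.
H2-DMb1, brighter probe, chr17:34297109-34297168: gatcactaagaaataaactggtggactttt
H2-DMb1, upstream probe, chr17:34290109-34290168: ttactgggtacaagtataggatctcaggag
H2-Ob, brightest probe, chr17:34380481-34380849: aaggctcagaaagcatctgtggagactcag
H2-Ob, downstream probe, chr17:34382790-34382849: atgtcaataaagaacatccactgtttgaag
H2-Ob, upstream probe, chr17:34377309-34377368: acatagaatgggccgaaagatggctcagtg
The brightest H2-Ob probe spans 369 bases of the genome with its 60 bases, so its 2 ends lie apart on mm9.

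**Figure D2:**
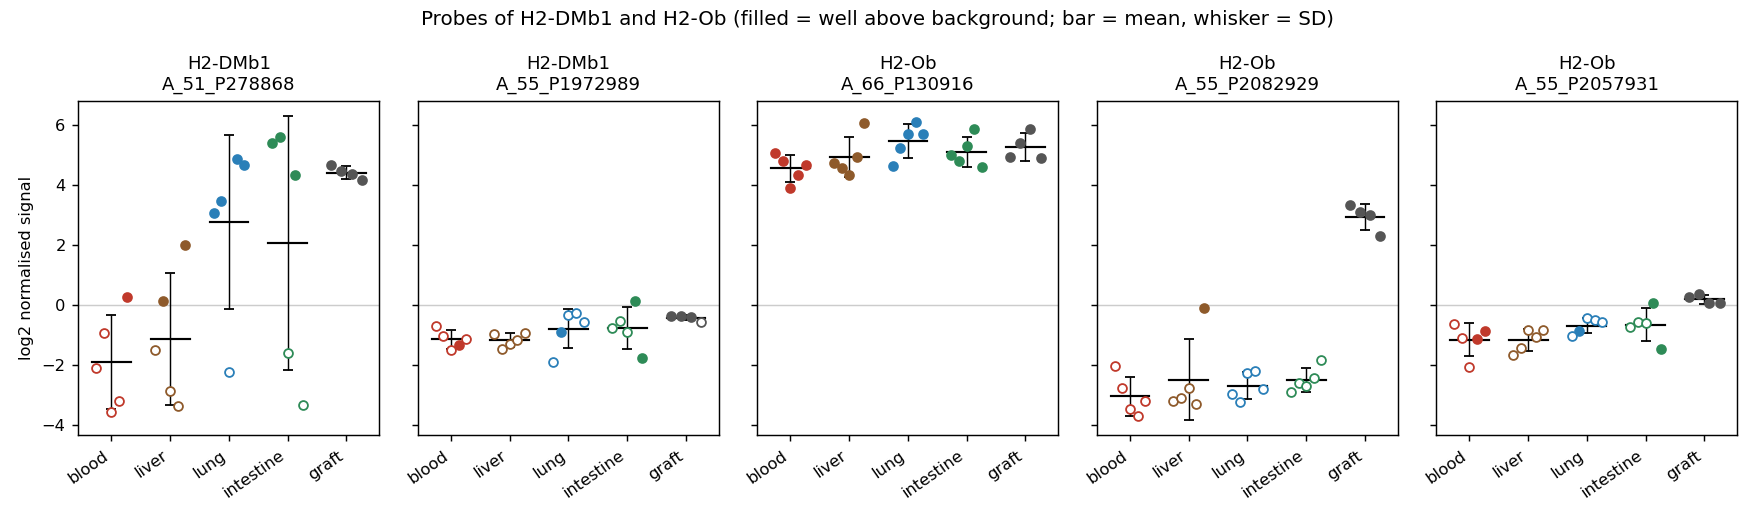
Log2 normalised signal (vertical axis) of the 2 H2-DMb1 probes and the 3 H2-Ob probes on every array, by site and graft (horizontal axis), filled where well above background, with means as bars and SD as whiskers. The brightest H2-Ob probe overlaps between all groups, while the downstream one was well above background on liver 5 alone at day 4 and on 4 of 4 graft arrays.

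Ciita, which encodes the transactivator of class II genes, could not be read. Its only probe was not well above background on any of the 24 arrays, and its values were -3.81 to -1.86 at day 4 and -3.17 to -2.51 in the graft. No level or difference of Ciita was therefore obtained.

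Site by site, 3 of the genes were called lower than in the graft at all 4 sites, and 4 others in blood and liver. In blood, 7 of the 8 genes were called lower than in the graft (21.2% of all genes), and in liver the same number was (16.1% of all genes). In lung 3 were called lower (11.6% of all genes) and in intestine 3 were (12.8% of all genes), in both cases H2-Aa, H2-DMa and H2-Oa. These 4 comparisons share the graft arrays. H2-Aa was well above background on 0 of 5 lung arrays and 2 of 5 intestine arrays, so background limits its difference there. Its graft mean was 2.68, against 6.49 for H2-Ab1. Whether H2-Aa and H2-Ab1 differed from the graft by different amounts was not tested. For H2-Ab1 the difference from the graft was -8.27 ± 1.76 (SE) in blood, -7.24 ± 1.76 in liver, -3.16 ± 1.76 in lung, with -3.56 ± 1.76 in intestine. Those in lung and intestine were not called (limma adjusted p = 0.162 and adjusted p = 0.12). For Cd74 it was -6.16 ± 1.25 in blood, -5.17 ± 1.25 in liver, -2.51 ± 1.25 in lung, with -1.93 ± 1.25 in intestine. H2-Ab1 and Cd74 were each well above background on 1 of 5 blood arrays and 2 of 5 liver arrays, so background limits their differences there. H2-Oa differed by -2.57 ± 0.41 in blood, -1.93 ± 0.41 in liver, -2.83 ± 0.41 in lung, with -2.62 ± 0.41 in intestine, each called.

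**Figure D3:**
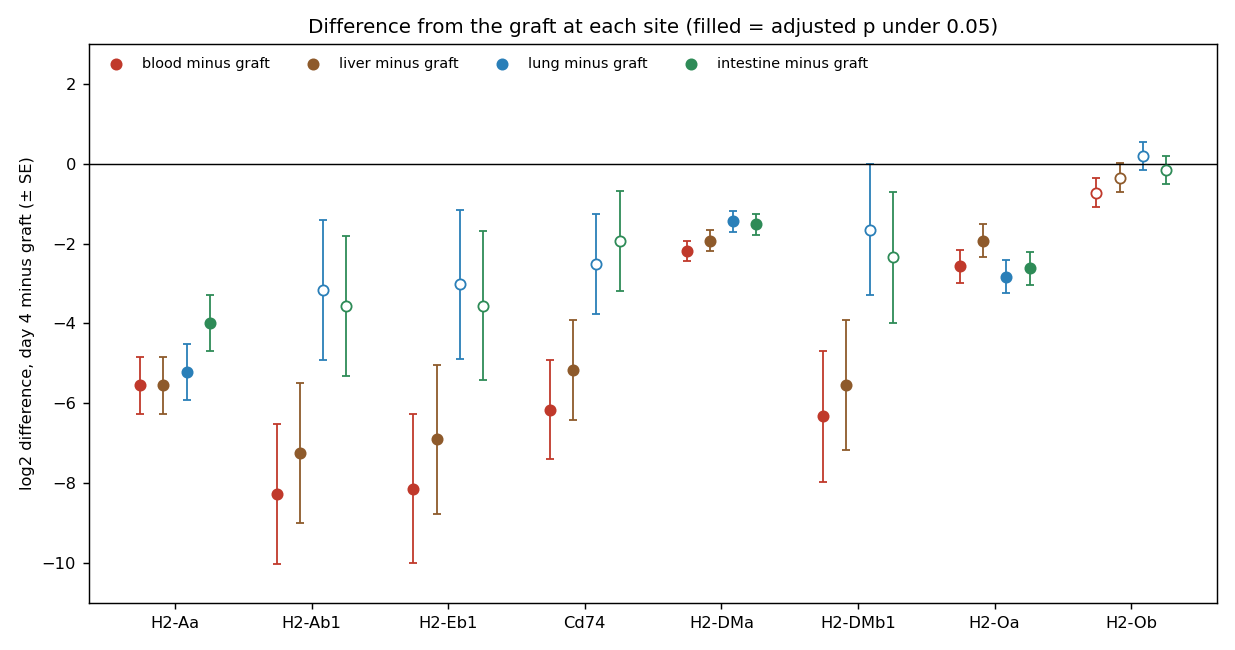
Log2 difference from the graft (vertical axis) of the 8 tested genes (horizontal axis) in blood, liver, lung and intestine, with SE as whiskers and filled points where the limma adjusted p was under 0.05. H2-Aa, H2-DMa and H2-Oa are filled at all 4 sites, while H2-Ab1, H2-Eb1, Cd74 and H2-DMb1 are filled in blood and liver only.

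The pairs of day 4 sites asked whether recovered cells from different organs differed in these transcripts. Cd74 was higher in intestine than in blood, with means of 2.91 ± 3.06 in intestine and -1.32 ± 1.102 in blood (SD, n = 5 each) and a log2 difference of 4.23 ± 1.18 (SE, limma adjusted p = 0.0264). It was well above background on 5 of 5 intestine arrays and 1 of 5 blood arrays. Cd74 was the only gene called of the 8, where 1.78% of all genes were called higher, 11.5% lower and 13.2% in either direction. The call ended when blood 2, blood 3, intestine 1, intestine 2 or intestine 4 was left out, with adjusted p from 0.0529 to 0.0948, and under 2 of the other scalings. With the replicate number as a block, 2 genes were called in this pair, Cd74 and H2-Ab1. Without intestine 5, 6 were called, with H2-Aa, H2-Ab1, H2-Eb1, H2-DMa and H2-DMb1 added to Cd74, and without intestine 3, 4 were called.

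In the other pairs limma called 0 of the 8 genes. Lung exceeded blood by 5.10 ± 1.66 for H2-Ab1, 5.11 ± 1.76 for H2-Eb1 and 4.68 ± 1.54 for H2-DMb1 (SE), with adjusted p of 0.0853, 0.0957 and 0.0876, and 6 genes had an unadjusted p under 0.05. Each of the 3 was well above background on 4 of 5 lung arrays and 1 of 5 blood arrays. In that pair 1.45% of all genes were called. Without lung 3, the array on which all 4 of H2-Ab1, H2-Eb1, Cd74 and H2-DMb1 were not well above background, these 4 were called higher in lung than in blood. Without lung 1, H2-DMa and H2-Ob were called there instead. Lung against liver had 5 genes with an unadjusted p under 0.05 (0.455% of all genes called), intestine against liver 4 (0% of all genes called), and intestine against lung (0.381% of all genes called) and liver against blood (0% of all genes called) had 0. For the 3 digested tissues together against blood, 6 genes had an unadjusted p under 0.05 and 0 were called (0.18% of all genes called). Without intestine 5, 3 genes were called in that comparison (Cd74, H2-DMa and H2-DMb1) and 3 in intestine against liver (H2-Aa, Cd74 and H2-DMb1).

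Within a slide, each site had 1 array, so slide values have no replicate check. Cd74 was well above background in intestine and not in blood on slides 1 to 4, and on slide 5, where both measured it, intestine minus blood was -0.78. H2-Eb1 was well above background in lung and not in blood on slides 1, 2 and 4, and in neither on slide 3. On slide 5, where both measured H2-Eb1, lung minus blood was 5.28. On slide 3, H2-Ab1, H2-Eb1 and H2-DMb1 were not well above background at any site. On slide 5 these 3 genes were above 0 in liver and lung and below 0 in intestine.

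**Figure D4:**
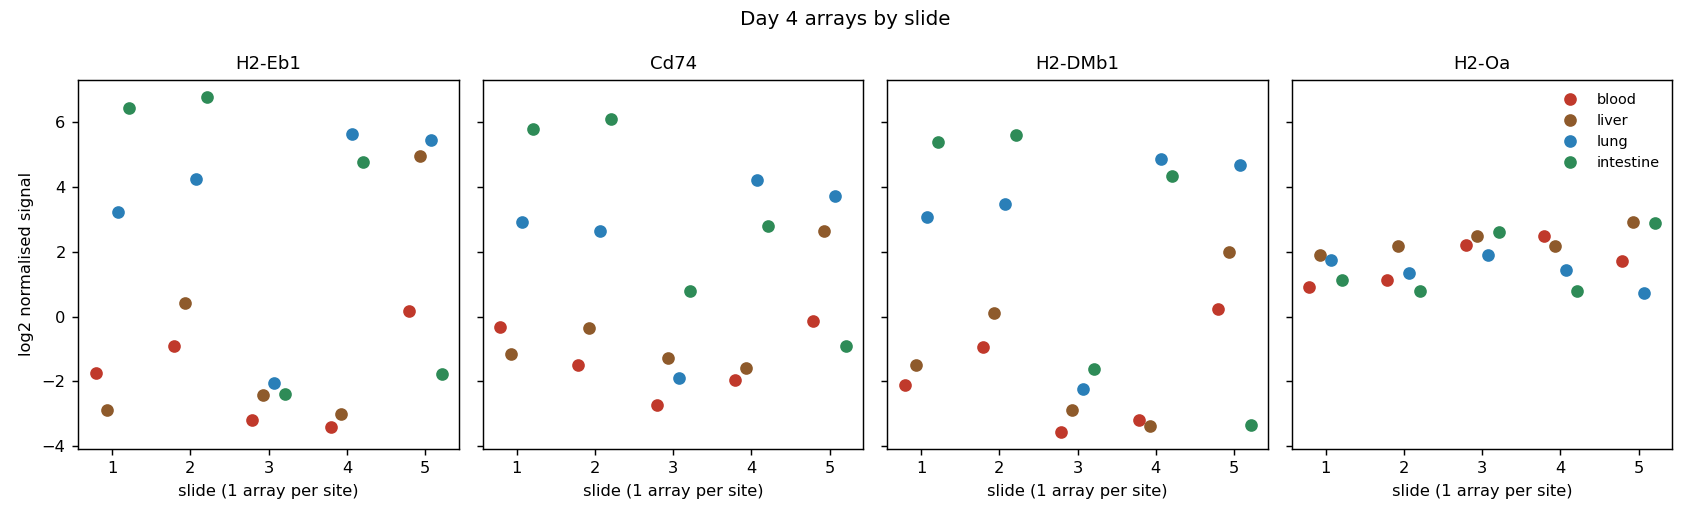
Log2 normalised signal (vertical axis) of H2-Eb1, Cd74, H2-DMb1 and H2-Oa on the day 4 arrays, by slide (horizontal axis) with 1 array per site on each. On slide 3 the H2-Eb1 and H2-DMb1 points of all 4 sites lie below 0, and on slide 5 the intestine points of H2-Eb1, Cd74 and H2-DMb1 lie below 0 while those of liver and lung lie above it. The H2-Oa points stay between 0.73 and 2.91.

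The genes also differed in how they followed Cd74 from array to array. Over all 24 arrays Pearson's r with Cd74 was 0.962 for H2-Eb1, 0.958 for H2-Ab1, 0.958 for H2-DMb1, 0.763 for H2-DMa, 0.748 for H2-Aa, 0.485 for H2-Ob and 0.17 for H2-Oa. Over the 20 day 4 arrays after the site means were subtracted, it was 0.942 for H2-DMb1, 0.938 for H2-Eb1, 0.917 for H2-Ab1, 0.651 for H2-Aa, 0.507 for H2-DMa, 0.308 for H2-Ob and -0.56 for H2-Oa. These are descriptions over arrays that share slides and scaling.

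Outside the 9 genes, those most like Cd74 over 24 arrays were Ctsh at an r of 0.966, Cyp4f18 at 0.935, Atp6v0a1 at 0.932, Tgfbi at 0.932, Lgmn at 0.923, Fcgr2b at 0.918 and Slamf9 at 0.909. Ctsh and Lgmn encode the lysosomal proteases cathepsin H and legumain, and Fcgr2b an inhibitory Fc receptor. Within sites at day 4 the list was Ctsh at 0.957, Slamf9 at 0.936, Lgmn at 0.931, Tgfbi at 0.929, Wdfy4 at 0.924, Atp6v0a1 at 0.912, Klra2 at 0.901 and Cyp4f18 at 0.899. Of these, Ctsh, Lgmn, Tgfbi, Slamf9, Atp6v0a1 and Cyp4f18 were in both lists.

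The other genes of the pathway were taken from lists of transcription, antigen processing and costimulation. Of 10 listed genes of class II transcription, 5 were tested, 2 were higher over the 4 sites and 0 were lower, where 34.3% of all genes were called higher. These were Nfyc and Nfyb, subunits of the factor NF-Y that binds the Y box. Nfyc averaged 3.96 over the 4 sites and 2.46 in the graft, a log2 difference of 1.51 ± 0.21 (SE, limma adjusted p = 2.92e-06). Nfyb, well above background on 12 of 20 day 4 arrays and on 0 of 4 graft arrays, stood at least 1.23-fold higher (adjusted p = 0.000777), a call that 4 of the 5 other scalings kept. Probes of Rfx5, Rfxap, Nfya and Spi1 were not well above background on any array. In intestine against blood, Irf4 was lower with a log2 difference of -2.27 ± 0.64 (SE, limma adjusted p = 0.0277), and Nfyc with one of -0.75 ± 0.24 (adjusted p = 0.0435). In this pair 11.5% of all genes were called lower in the reported fit, and from 0.0635% to 11.4% under the 5 other scalings.

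Of 14 listed genes of antigen processing, 13 had a probe and 10 were tested over the 4 sites, where 3 were higher (Cd9, Ctsd and Ctsb) and 2 were lower (H2-Eb2 and Ifi30), against 34.3% higher and 19.1% lower over all genes. Their median was -0.49. Ifi30, a lysosomal thiol reductase that opens disulfides of antigens, averaged 1.59 over the 4 sites and 2.90 in the graft, with a log2 difference of -1.31 ± 0.34 (SE, limma adjusted p = 0.00281). H2-Eb2, a relative of H2-Eb1, was well above background on 0 of 20 day 4 arrays and 3 of 4 graft arrays and thus stood at least 2.16-fold lower (adjusted p = 7.62e-08). Cd9, a tetraspanin, was higher by 2.19 ± 0.30 (SE, adjusted p = 3.08e-06). The aspartic protease Ctsd (0.61 ± 0.25, adjusted p = 0.042) and the cysteine protease Ctsb (0.63 ± 0.26, adjusted p = 0.0476) kept their calls under 1 of 5 other scalings each. Ctsb was named after its value was seen. Lgmn was higher in intestine (5 of 5 arrays well above background) than in blood (2 of 5) by 3.42 ± 1.11 (SE, limma adjusted p = 0.0458).

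Of 7 costimulatory genes of presenting cells, 3 were lower over the 4 sites (Icosl, Cd40 and Cd86) and 1 was higher (Pdcd1lg2), with a median of -0.31, against 19.1% lower and 34.3% higher over all genes. Icosl, the ligand of ICOS, averaged -1.31 over the 4 sites and 2.94 in the graft, a log2 difference of -4.25 ± 0.41 (SE, limma adjusted p = 1.88e-08). At day 4 Icosl was well above background on 1 of 5 blood arrays, 3 of 5 intestine arrays and no liver or lung array. Background therefore limits this difference. Cd40, the receptor for CD40 ligand, was well above background on 2 of 20 day 4 arrays and 4 of 4 graft arrays and differed by -3.46 ± 0.54 (SE, adjusted p = 1.38e-05). Pdcd1lg2, which encodes the PD-1 ligand PD-L2, was well above background on 17 of 20 day 4 arrays and 0 of 4 graft arrays and thus stood at least 3.13-fold higher (adjusted p = 1.86e-05). In intestine against blood, Cd83, a surface protein of activated presenting cells and lymphocytes, was higher by 4.15 ± 0.70 (SE, adjusted p = 0.00503). Cd86, well above background on 3 of 5 intestine arrays and 0 of 5 blood arrays, was at least 1.35-fold higher there (adjusted p = 0.0239), and Cd274, named after its value was seen, was higher by 0.82 (adjusted p = 0.0329).

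Markers of other cells were read on the same arrays, and their part in the results was not tested. Of 15 tested B cell genes, 14 were lower over the 4 sites and 0 were higher, against 19.1% of all genes called lower. Their summed normalised signal was 13.4 to 20.8 in blood, 15.3 to 64.8 in liver, 16.3 to 33.2 in lung, with 24.8 to 44.6 in intestine, against 313 to 420 in the graft. Ms4a1 and Spib were well above background on 0 of 20 day 4 arrays and 4 of 4 graft arrays, and Ms4a1, which encodes CD20, stood at least 85.1-fold lower at day 4 (limma adjusted p = 1.71e-13). Cd79a, a chain of the B cell receptor named after its values were seen, was well above background at day 4 on liver 5 and intestine 1, intestine 2 and intestine 3. Liver 5, the highest liver array for H2-Ab1, H2-Eb1, Cd74 and H2-DMb1, was also the only day 4 array on which the downstream H2-Ob probe was well above background.

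Of 15 macrophage genes, 6 were tested and 4 were lower over the 4 sites (Csf1r, C1qc, Chil3 and Clec4f), against 19.1% of all genes. The sum of the 15 was 6.08 to 12.8 in blood, 4.69 to 18.3 in liver, 5.89 to 443 in lung, with 4.26 to 156 in intestine, against 18.1 to 72.6 in the graft. In lung it was 134, 117, 5.89, 443 and 279 on arrays 1 to 5, and in intestine 122, 156, 9.66, 4.26 and 9.57. The low array of lung (3) and the high arrays of intestine (1 and 2) were also those of H2-Ab1, H2-Eb1, Cd74 and H2-DMb1. Intestine 4 went apart from this, with a macrophage sum of 4.26 and H2-Eb1 at 4.78. Csf1r, the receptor that marks macrophages, was well above background at day 4 on lung 1, lung 4, lung 5, intestine 1 and intestine 2, and Chil3, a product of alveolar macrophages, was higher in lung (4 of 5 arrays well above background) than in blood (1 of 5) by 7.66 ± 1.56 (SE, limma adjusted p = 0.0151). Vsig4 was not well above background on any array.

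**Figure D5:**
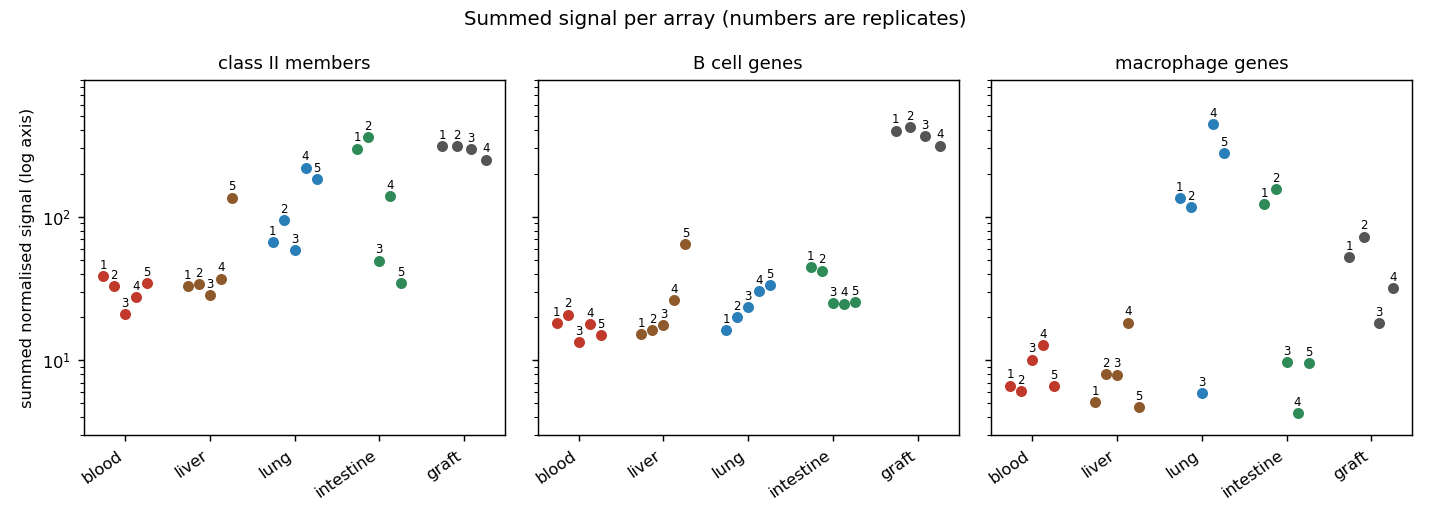
Sum of normalised signal (vertical log axis) over the 9 class II genes, 18 B cell genes and 15 macrophage genes on each array, by site and graft (horizontal axis), with replicate numbers beside the points. B cell sums of all day 4 arrays lie at or below 64.8 and those of the graft at or above 313, while macrophage sums of 4 lung arrays and 2 intestine arrays lie above those of the graft.

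Other markers gave the following ranges. Of 6 dendritic cell genes tested, 2 were lower over the 4 sites, Cd209a and Clec10a, against 19.1% of all genes, and the list summed to 46.4 to 94.2 in blood, 74.2 to 256 in liver, 80.5 to 137 in lung, with 99.3 to 249 in intestine, against 79.9 to 115 in the graft, so these sums overlapped. Clec9a and Ccl22 were not well above background on any array, while Itgax, Xcr1 and Siglech were on all 24. In liver and intestine the highest values of this list were those of Ccr7, up to 7.49 and 7.48 (log2 normalised signal). The dendritic cell sums add linear signal, so they can follow Ccr7 and are no measure of dendritic cells alone. Of 8 tested neutrophil and monocyte genes, 6 were lower (19.1% of all genes), and their sum was 49.5 to 198 over day 4 arrays and 410 to 514 in the graft. Epithelial genes summed to 6.46 to 167 in lung, 2.95 to 176 in intestine and 3.15 to 34.6 in liver. In blood their sum was 2.86 to 5.38 and in the graft 6.04 to 6.58. The highest sum in liver was that of liver 5, and the highest in intestine that of intestine 4. The surfactant gene Sftpc, a product of lung alveolar cells, was well above background on 4 of 5 lung arrays and 0 of 5 blood arrays, and was at least 34.9-fold higher in lung (limma adjusted p = 0.000632). On lung 3, where H2-Ab1, H2-Eb1, Cd74 and H2-DMb1 were not well above background, Sftpc was not either, unlike on the other 4 lung arrays. H2-DMa, H2-Oa and the brightest H2-Ob probe were well above background on lung 3.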

How the data were processed

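Scanner files, 1 per array, were deposited by the authors. Their processed signal is a linear intensity with background subtracted and no normalisation between arrays. The local background and mean spot intensity and the flags of the same deposited files were also used. The scanner software was Agilent Feature Extraction, given as version 10.7 by the submitters' processing notes. The file headers give 9.5.1.1 and place the probes on mm9. The authors also deposited a log2 table, which matched quantile-normalised log2 signal minus each probe's median over the arrays (lowest correlation 0.99977, array medians -0.03 to 0.028) and served only as an alternative.

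Each array held 44397 spots, 1377 of them controls. Control spots and spots flagged non-uniform were left out, and spots of a probe were averaged. Values are log2 processed signal minus the array's 75th percentile. Gene symbols of the array were updated through RefSeq by accession (27497 probes), symbol (3542) or synonym (404), while 1541 probes kept their name and 6432 had none. Named probes well above background on all arrays, or all but 1, of at least 1 group were tested (11278 probes), and each of 9450 genes was represented by its brightest probe on average. Where a probe passed through 1 side of a comparison alone, its call there is not separate from this filter.

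One limma 3.58.1 model in R 4.3.3 with 5 group means was fitted to all 24 arrays, and 12 differences were drawn from it. P-values were adjusted by Benjamini-Hochberg over all tested genes within a difference, at 0.05. The fit was tested on simulated data. The 9 genes, the lists of other genes and the rule for naming genes were chosen with earlier results of these data known. From each list of other genes, at most 4 called genes with the smallest adjusted p were named, plus those marked as named after their values were seen, and the 8 genes most like Cd74 by Pearson's r. Some items that these rules select are not reported here. Groups came from the sample labels. Per the file headers, same-numbered day 4 replicates shared a slide, so the replicate block is the slide block. Deviations from group means of 30 same-numbered pairs of arrays correlated at -0.369 to 0.564, and 18 exceeded 0.1. Alternatives covered background correction, scaling, the dim-probe filter, probe choice, array weights, slide and leaving out arrays. The fit of every probe and the fixed slide block on day 4 arrays were added after the data were seen. The depth of an array has no counterpart in counts, so no counting interval is given.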

Additional observations from a re-analysis of the deposited data

Results flagged for a closer look

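Of 65 sets of 1 probe in 1 group, 5 held an array whose distance from its nearest neighbour passed Dixon's 95% value, where chance flags about 1 set in 20. Of these, 4 were lung 3: Cd74 at -1.90 against 2.65 for the next lowest lung array, the 2 H2-Ab1 probes at -2.06 and -2.27 against 3.51 and 3.16, and the brighter H2-DMb1 probe at -2.24 against 3.08. The fifth was liver 5 on the downstream H2-Ob probe, at -0.11 against -2.77 for the next highest liver array. These values are normalised log2 signals. The 4 probes of lung 3 lie on 1 array and are not separate observations.

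Cd74 differed between day 4 sites, 4.231 log2 units higher in intestine than in blood (limma adjusted p = 0.0264), a difference tested directly in the model. It was the only 1 of the 8 genes called between 2 sites in the reported fit.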

How the results depend on the processing

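Under every alternative run, the genes called against the graft numbered 7 or 8 for the 4 sites together, for blood and for liver, and 3 or 4 for intestine. For lung they numbered 3 or 4, except 5 with array weights. Leaving out each array in turn left these counts at 7, 7, 7, 3 and 3, as did leaving out lung 4 and intestine 4 together. H2-Ob over the 4 sites reversed to 0.002 with normexp background correction and was called lower at -2.331 as the mean of its tested probes (limma adjusted p = 1.91e-07). Between sites the counts moved. In intestine against blood, 1 gene was called in the reported fit, 0 with the scaling percentile taken over probes detected on every array, 0 with centring on detected probes' median, 6 with array weights, 2 with the replicate number as a block and 2 with the slide as a random block (correlation within slide 0.105). With array weights, 6 genes were called for the 3 digested tissues against blood, 5 for lung against blood, 4 for lung against liver, 7 for intestine against liver and 1 for intestine against lung, each 0 in the reported fit. Calls over all genes in these 5 comparisons also numbered 1823, 957, 665, 3217 and 732 with array weights, against 17, 137, 43, 0 and 36 in the reported fit, and 3848 against 1252 in intestine against blood. Leaving out each array in turn gave 0 to 6 for intestine against blood, 0 to 3 for the 3 digested tissues against blood, 0 to 3 for intestine against liver and 0 to 4 for lung against blood. The cause was not tested. The replicate block changed no other count of called genes by over 1.5 times. Signal near background limits H2-Aa, H2-Ab1, H2-Eb1, Cd74 and H2-DMb1 at day 4, where between 2 and 12 of 20 arrays read them well above background.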
